A study of Mus musculus with 6 samples.

Results

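The cytosolic nucleic acid sensors and adaptors are the proteins with which a cell detects misplaced or foreign RNA and DNA. They were taken as 10 named genes, and all 10 had a row among the 19213 genes of the deposited table. Ddx58 encodes RIG-I, Ifih1 encodes MDA5 and Dhx58 encodes LGP2, the family of RIG-I-like receptors. Mavs, Mb21d1 (cGAS), Tmem173 (STING), Eif2ak2 (PKR), Tlr3, Zbp1 and the kinase gene Tbk1 complete the set. Of the 10 genes 9 passed the filter on low values, at least 10 scaled reads in at least 3 of the 6 libraries, and Zbp1 did not.

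RIG-I and MDA5 bind double-stranded or 5′-triphosphate RNA in the cytosol and signal through MAVS on mitochondria, while LGP2 lacks the signalling domains and modulates the other two. The enzyme cGAS binds DNA and makes the messenger cGAMP, which activates STING on the endoplasmic reticulum. Both arms converge on TBK1, which phosphorylates interferon regulatory factors and so drives type I interferon genes, and many of the sensor genes are themselves induced by interferon. PKR stops translation when it binds double-stranded RNA, TLR3 senses such RNA in endosomes, and ZBP1 binds left-handed nucleic acid and can start necroptosis. In melanoma cells these pathways bear on how visible a tumour is to the immune system.

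Mouse melanoma cells carrying an Spp1 knockout made with CRISPR cas9 (3 samples) were set against cells with a non-targeting control (3 samples), by sequencing of polyA RNA. Spp1 encodes osteopontin, a secreted protein that binds integrins and CD44. The labels give all samples as melanoma cells of batch 1 and call them biological replicates. They name B16F10 as the cell line of control 1 and a different number in every later sample, up to B16F15 in knockout 3, so a difference between cells cannot be told apart from the knockout. Whether the samples are clones, pools or separate cultures is not stated in the labels, so each p-value covers only sample-to-sample spread, which may be technical. Levels are given as scaled reads, the authors' read numbers after division by a size factor for each library.

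The libraries held 72717465 to 94314770 reads in listed genes. Spp1 had 2.09, 1.98 and 3.90 scaled reads in the knockout libraries, against 149, 156 and 145 in control, so that the summed level was 0.0178 of control (exact 95% counting interval 0.00765 to 0.0354). The melanocytic genes Tyrp1, Dct and Pmel stood among the marker genes with by far the most reads in both groups, with Tyrp1 at 503767 ± 7438 in knockout and 414023 ± 5207 in control (SD, n = 3 each). Of the 9 genes of that list 5 rose and 2 fell, S100b by 1.55 and Tyr by 0.55 on the log2 scale. Of 15307 genes tested, 9640 (63.0%) changed in limma at an adjusted p under 0.05, 5266 higher (34.4%) and 4374 lower (28.6%) in knockout. The balance depended on the scaling, with 29.2% higher and 32.8% lower when library totals were made equal, and 28.1% higher and 29.9% lower in edgeR on 5 libraries. Among markers of other cell types, 5 of 13 macrophage and myeloid genes had a row, and their summed level was 52.4 to 57.5 scaled reads in knockout and 196 to 232 in control. Lyz2 made up most of the sum in both groups and was lower in knockout, with a log2 change of -2.15. It lies on chromosome 10, where the median over all 690 tested genes was -0.58. With the median of the 25 tested genes on each side taken off, its change was -1.63. S100a8 and Cd14 were lower too, but passed the filter through the control libraries alone and so had to differ, and Csf1r averaged 2.96 in knockout and 2.30 in control. Ptprc, Adgre1, Itgam, Tyrobp, Aif1, C1qa, C1qb and Cx3cr1 were not analysed here. Of 10 T and NK cell markers 0 had a row, of 4 B cell markers 1, of 6 dendritic cell markers 1, of 8 fibroblast markers 5 and of 6 endothelial markers 2. The sums ran from 1074 to 1142 in knockout and 739.6 to 766 in control for dendritic cells (all Zbtb46), from 932 to 1002 in knockout and 813 to 907 in control for fibroblasts, and from 608 to 658 in knockout and 78.9 to 81.4 in control for endothelium (mostly Vwf). The fibroblast genes moved apart within their sum, with Col1a2 higher by 2.54 and log2 changes of -3.70 for Col1a1 and -0.71 for Pdgfra. Mitochondrially encoded genes took 2.75% to 2.90% of the signal in knockout and 2.83% to 3.04% in control.

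Most sensor genes were lower in the Spp1 knockout, while the adaptors MAVS and STING were slightly higher. Of the 9 tested genes 7 fell and 2 rose in limma, against 28.6% lower and 34.4% higher among all tested genes. The genes were chosen with earlier results of these data known. One of the 7, Tbk1, did not pass once the median change of its chromosome 10 neighbours was taken off (limma adjusted p = 0.178). The median log2 change of the 9 was -0.53, beside 0.025 for all tested genes. Ifih1 and Ddx58 fell by more than 2-fold, and 5.46% of tested genes both passed in limma and were at least 2-fold lower. In all 9 the knockout and control libraries did not overlap, as in 67.1% of tested genes (30.8% lower and 36.3% higher in knockout). Against a change of 1.2-fold, a limit set with the results known, 6 of the 9 still passed, all lower, where 14.2% of tested genes passed as lower and 10.3% as higher. In bulk RNA, fewer cells that express a gene and less RNA per cell cannot be told apart. The part of the lower myeloid markers in these results was not tested.

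**Figure D1:**
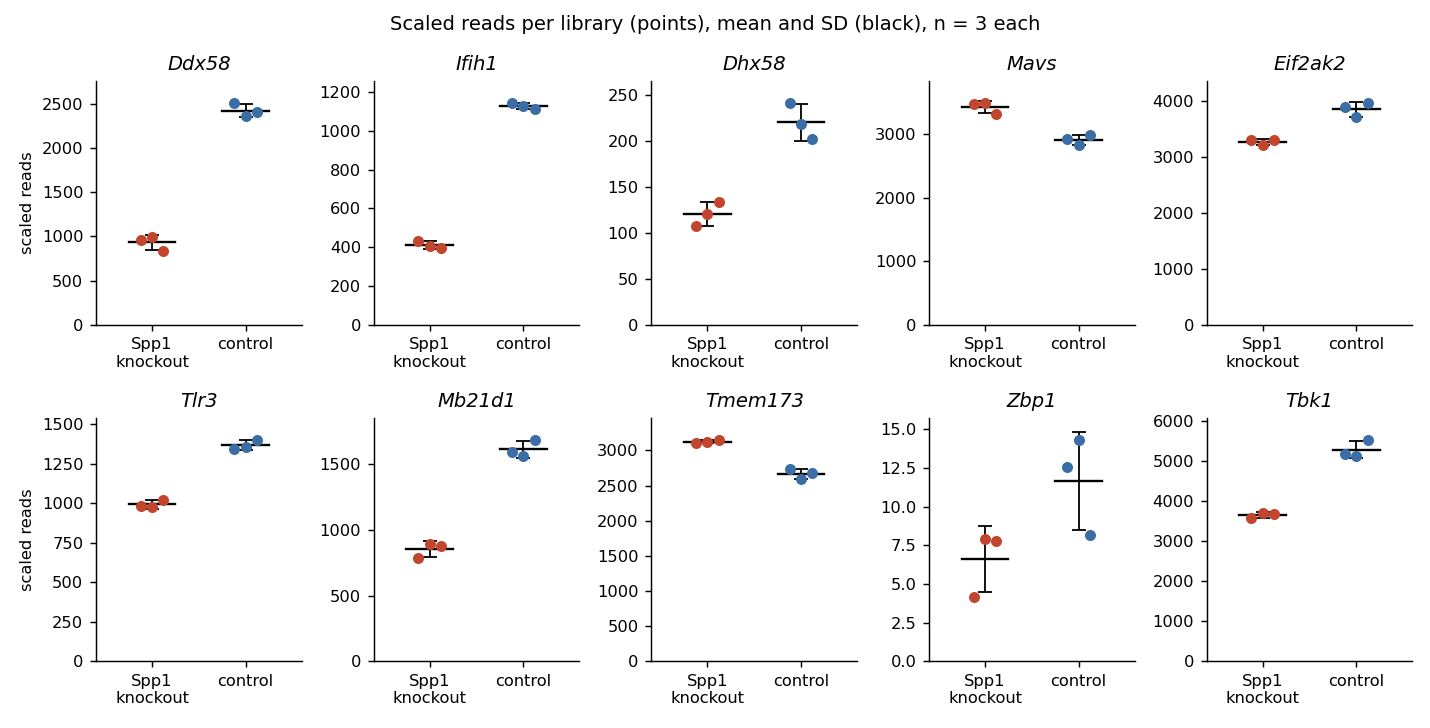
Scaled reads (linear axis from 0) of each of the 10 genes in the 3 knockout libraries (red, left) and the 3 control libraries (blue, right), with mean and SD in black. Ddx58, Ifih1, Dhx58, Mb21d1, Tlr3, Tbk1, Eif2ak2 and Zbp1 have lower means in knockout, and Mavs and Tmem173 have higher means.

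The promoter sequences of 5 of the genes are shown because the genes moved by different amounts and the windows differ in whether they hold the core of an interferon-stimulated response element. Interferon regulatory factors bind such sites. The windows are from RefSeq on GRCm38.p6, the assembly named mm10, and run from 250 bases before to 50 bases after the annotated start. Capitals mark matches to the core, taken as GAAA, any 2 bases and GAAA, searched on both strands.
Ddx58 promoter (chr4:40239776-40240075, minus strand): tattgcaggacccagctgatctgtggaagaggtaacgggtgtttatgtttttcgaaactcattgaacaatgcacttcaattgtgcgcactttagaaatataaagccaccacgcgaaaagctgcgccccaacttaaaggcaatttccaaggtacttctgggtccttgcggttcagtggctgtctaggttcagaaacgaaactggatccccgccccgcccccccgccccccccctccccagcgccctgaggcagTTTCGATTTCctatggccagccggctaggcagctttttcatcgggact
Ifih1 promoter (chr2:62646206-62646505, minus strand): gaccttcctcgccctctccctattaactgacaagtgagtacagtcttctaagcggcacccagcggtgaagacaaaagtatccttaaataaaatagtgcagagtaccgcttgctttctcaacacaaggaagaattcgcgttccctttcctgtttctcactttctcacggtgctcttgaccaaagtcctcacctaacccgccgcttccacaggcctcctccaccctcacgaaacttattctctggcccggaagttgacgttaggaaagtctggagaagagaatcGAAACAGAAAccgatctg
Eif2ak2 promoter (chr17:78882523-78882822, minus strand): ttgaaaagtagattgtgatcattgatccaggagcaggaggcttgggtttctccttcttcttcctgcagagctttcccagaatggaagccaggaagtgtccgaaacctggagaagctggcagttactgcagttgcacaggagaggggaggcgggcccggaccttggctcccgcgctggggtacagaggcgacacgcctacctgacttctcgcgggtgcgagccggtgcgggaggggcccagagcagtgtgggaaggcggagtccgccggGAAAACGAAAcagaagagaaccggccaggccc
Mb21d1 promoter (chr9:78443188-78443487, minus strand): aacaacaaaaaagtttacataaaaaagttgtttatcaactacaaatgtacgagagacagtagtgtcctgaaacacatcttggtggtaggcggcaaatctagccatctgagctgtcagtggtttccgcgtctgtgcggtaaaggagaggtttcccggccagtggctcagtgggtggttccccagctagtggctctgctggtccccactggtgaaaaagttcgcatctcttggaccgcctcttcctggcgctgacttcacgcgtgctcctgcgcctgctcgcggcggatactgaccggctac
Mavs promoter (chr2:131233813-131234112, plus strand): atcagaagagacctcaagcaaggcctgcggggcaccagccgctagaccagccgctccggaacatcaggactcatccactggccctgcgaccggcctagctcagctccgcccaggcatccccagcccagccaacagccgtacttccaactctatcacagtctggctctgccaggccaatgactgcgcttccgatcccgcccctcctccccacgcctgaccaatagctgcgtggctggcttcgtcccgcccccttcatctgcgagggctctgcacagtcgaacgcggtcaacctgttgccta

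Of the 10 genes the windows of 7 were analysed here, and 3 of these held the response element core, Ddx58, Ifih1 and Eif2ak2. Chromosome 18, where Tmem173 lies, was left out of this count. The core was present in 3.44% of all 32851 windows of this length, and in at least 1 window of 3.99% of 27025 genes. In all 3 genes it lay just after the start, at bases 3 to 12 of Ddx58 on the opposite strand, 33 to 42 of Ifih1 and 19 to 28 of Eif2ak2, counted from 1 at the start. No match was found in the windows of Mavs, Mb21d1, Tlr3 and Tbk1. Of the genes with the core, Ddx58 and Ifih1 had the largest decreases of the set and Eif2ak2 the smallest. A relation between a match and the size of change was not tested. These matches describe letters only, and binding was not measured.

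The RNA sensors MDA5 and RIG-I had the largest decreases among the 9 tested genes. Ifih1 (ENSMUSG00000026896.14, chromosome 2, 62595798 to 62646255 on the minus strand of mm10), the sensor of long double-stranded RNA, had 434, 406 and 394 scaled reads in knockout, against 1144, 1127 and 1115 in control. The groups were far apart, and the control libraries differed from each other by a coefficient of variation of 1.28%. The mean was 411 ± 20.5 in knockout and 1129 ± 14.5 in control (SD, n = 3 each), or -1.46 ± 0.06 on the log2 scale (SE, limma adjusted p = 2.59e-11).

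Ddx58 (ENSMUSG00000040296.15, chromosome 4, 40203773 to 40239828, minus strand), the sensor of RNA with 5′-triphosphate ends, had 961, 996 and 836 scaled reads in knockout, against 2505, 2355 and 2407 in control. Knockout 3 was the lowest library, and the spread within knockout was 9.02% of the mean against 3.15% in control. The log2 change was -1.38 ± 0.06 (SE, limma adjusted p = 6.35e-11), with a 95% interval of -1.51 to -1.25. This overlaps the interval of Ifih1, -1.58 to -1.33. Per exon length, Ifih1 stood at 0.383 ± 0.0284 of Ddx58 in knockout and 0.402 ± 0.00988 in control, and the libraries of the groups overlapped in this ratio, so a change in the balance of the 2 sensors was not seen beyond their spread.

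Dhx58 (ENSMUSG00000017830.15, chromosome 11, 100694884 to 100704271, minus strand), which modulates both sensors, had 108, 121 and 134 scaled reads in knockout, against 241, 218 and 202 in control. It was the least read of the tested genes, with 103 to 137 reads per knockout library and 231 to 248 per control library. Its change was -0.86 ± 0.12 on the log2 scale (SE, limma adjusted p = 8.61e-06), with a wide interval of -1.11 to -0.62. Overlap with other genes, largest for the antisense gene Dhx58os, covers 4.30% of its exon length. Without a stated strand setting reads there cannot be told apart.

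The adaptor shared by RIG-I and MDA5 moved the other way. Mavs (ENSMUSG00000037523.13, chromosome 2, 131234063 to 131248025, plus strand) had 3478, 3494 and 3318 scaled reads in knockout, against 2931, 2835 and 2991 in control. All knockout libraries lay above all control libraries by a small margin, and the log2 change was 0.23 ± 0.039 (SE, limma adjusted p = 7.66e-05). It did not pass against a change of 1.2-fold (limma adjusted p = 1). The ratio of receptor to adaptor RNA per exon length was lower in every knockout library. Ddx58 stood at 0.129 ± 0.00813 of Mavs in knockout and 0.394 ± 0.0119 in control, Ifih1 at 0.0491 ± 0.00183 in knockout and 0.158 ± 0.00525 in control, and Dhx58 at 0.0361 ± 0.00481 in knockout and 0.0773 ± 0.00769 in control (SD, n = 3 each).

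The DNA arm showed the same division between sensor and adaptor. Mb21d1, the gene of cGAS (ENSMUSG00000032344.17, chromosome 9, 78430526 to 78443237, minus strand), had 789.8, 897 and 880.4 scaled reads in knockout, against 1593, 1561 and 1686 in control. The groups did not overlap, and the mean was 856 ± 57.8 in knockout and 1613 ± 64.9 in control (SD, n = 3 each). The log2 change was -0.92 ± 0.057 (SE, limma adjusted p = 2.1e-09). Overlap with other genes, largest for predicted gene Gm8093, covers 4.90% of the exon length of Mb21d1.

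Tmem173, the gene of STING (ENSMUSG00000024349.9, chromosome 18, 35733679 to 35740554, minus strand), had 3112, 3118 and 3151 scaled reads in knockout, against 2731, 2588 and 2683 in control. The knockout libraries differed among themselves by only 0.663% of their mean and lay above all control libraries. The log2 change was 0.23 ± 0.037 (SE, limma adjusted p = 6.49e-05), and it too missed the 1.2-fold limit (limma adjusted p = 1). Per exon length, Mb21d1 stood at 0.182 ± 0.0118 of Tmem173 in knockout and 0.402 ± 0.0151 in control.

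Tbk1, the kinase on which both arms converge (ENSMUSG00000020115.2, chromosome 10, 121546455 to 121586787, minus strand), had 3573, 3701 and 3684 scaled reads in knockout, against 5183, 5142 and 5533 in control. The groups did not overlap, and the log2 change was -0.53 ± 0.038 (SE, limma adjusted p = 8.18e-09). The genes around it on the chromosome were lower as well. Of the 25 tested genes on each side, 45 of 50 were lower in knockout and 1 was higher, with a median log2 change of -0.47. Net of that median Tbk1 stood at -0.060 and did not pass (limma adjusted p = 0.178). The median over all 690 tested genes of chromosome 10 was -0.58.

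Mb21d1 was the other gene in a lowered neighbourhood. Of its 50 neighbours on chromosome 9, 33 were lower and 2 higher, with a median of -0.30, and net of this median it stood at -0.62 and still passed (limma adjusted p = 2.03e-07). The glutathione transferase genes Gsta4, Gsta1 and Gsta2, which lie beside it, changed by -2.24, -1.75 and -3.37 on the log2 scale, values looked up because of their position. For the other 7 tested genes the median of the neighbours lay between -0.038 and 0.098. Ddx58 was lower than all of its 50 neighbours, and Ifih1 was lower than 48 of its 50. For Dhx58, Tlr3 and Eif2ak2 this number was 46, 45 and 40, for Mb21d1 39 and for Tbk1 29.

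**Figure D2:**
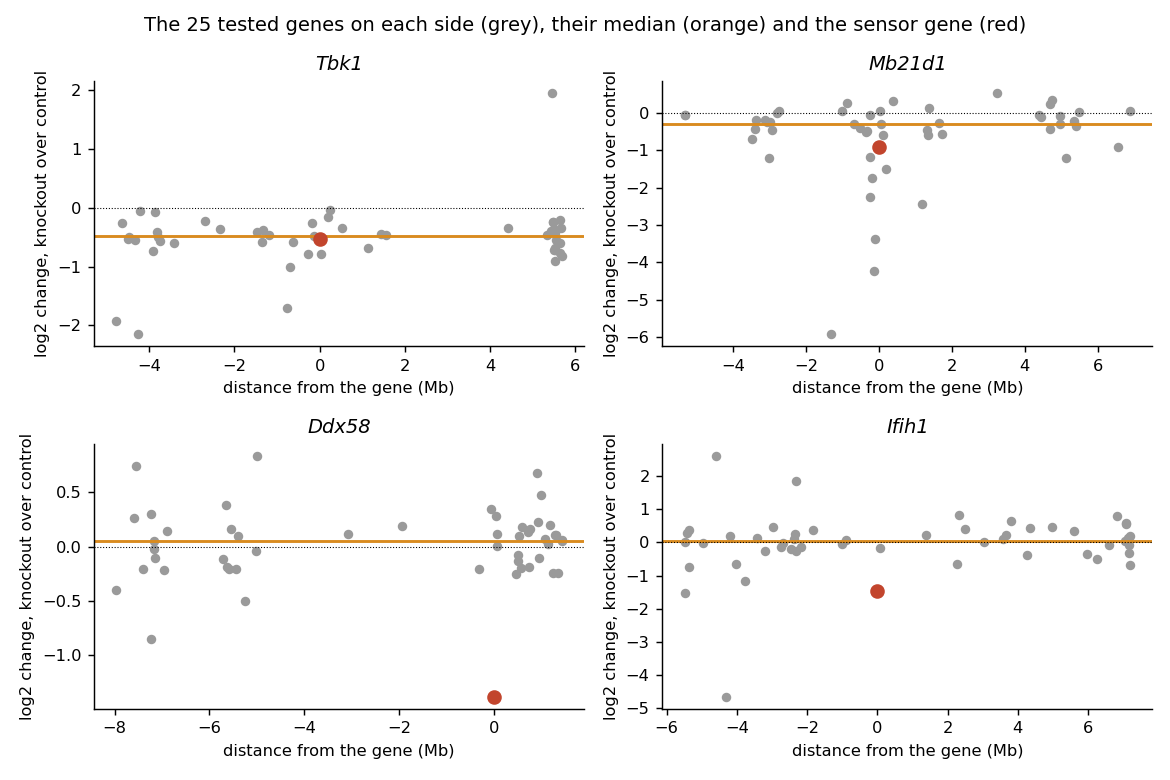
Log2 change of the sensor gene (red) and of the 25 tested genes on each side (grey) against distance in Mb, with the neighbours' median as an orange line. Tbk1 lies near the median of its neighbours, at -0.47, while Ddx58 and Ifih1 lie below neighbours whose medians are 0.055 and 0.044.

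PKR and TLR3, which detect double-stranded RNA outside the RIG-I-like pathway, fell by less. Eif2ak2 (ENSMUSG00000024079.4, chromosome 17, 78852564 to 78882573, minus strand), the kinase that phosphorylates eIF2 alpha, had 3304, 3206 and 3294 scaled reads in knockout, against 3881, 3703 and 3956 in control. Overlap with other genes, largest for predicted gene Gm26637, covers 4.3% of the exon length of Eif2ak2. Gm26637 itself changed by -0.63 on the log2 scale, a value looked up because of its position. The highest knockout library of Eif2ak2 lay below the lowest control library, and the log2 change was -0.23 ± 0.038 (SE, limma adjusted p = 5.38e-05). This did not pass against a change of 1.2-fold (limma adjusted p = 1).

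Tlr3 (ENSMUSG00000031639.11, chromosome 8, 45395665 to 45411080, minus strand), the endosomal receptor, had 979, 974 and 1021 scaled reads in knockout, against 1343, 1355 and 1399 in control. The groups were clearly apart, and the log2 change was -0.46 ± 0.048 (SE, limma adjusted p = 5.71e-07). Overlap with other genes, largest for predicted gene Gm45542, covers 7.30% of the exon length of Tlr3.

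Zbp1 (ENSMUSG00000027514.14, chromosome 2, 173206612 to 173218923, minus strand), the sensor of left-handed nucleic acid, was close to silent in both groups. It was read 4, 8 and 8 times in the knockout libraries and 12, 16 and 10 times in the control libraries. The scaled level was 4.18, 7.91 and 7.81 in knockout, against 12.5, 14.3 and 8.14 in control, and the nearest libraries of the groups almost touched. Knockout stood at 0.581 of control (exact 95% counting interval 0.321 to 1.02). In a fit with no filter on low values the log2 change was -0.74 ± 0.34 and did not pass (SE, limma adjusted p = 0.0817), so a difference was not detectable at this depth.

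**Figure D3:**
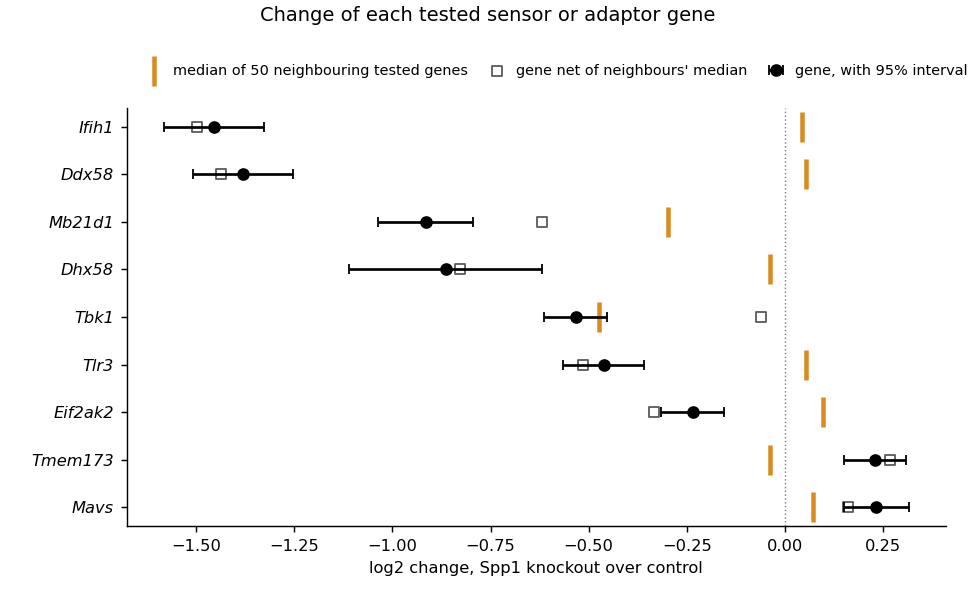
Log2 change of the 9 tested genes in knockout over control with 95% intervals from limma (black), the median log2 change of the 50 neighbouring tested genes (orange) and the change net of that median (open squares). Ifih1 and Ddx58 stand at -1.46 and -1.38, Mavs and Tmem173 at 0.23 each, and Tbk1 at -0.53 beside a neighbour median of -0.47.

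The order of the genes by level changed at the top, and lower down Ddx58 and Tlr3 changed places. Per kb of exon, the knockout means were 1141 scaled reads for Tmem173, 1025 for Mavs, 934 for Tbk1 and 639 for Eif2ak2. Mb21d1 followed at 207, Tlr3 at 190.4, Ddx58 at 132, Ifih1 at 50.4, Dhx58 at 36.9 and Zbp1 at 1.88. In control, Tbk1 stood first at 1352, with Tmem173 at 973, Mavs at 873, Eif2ak2 at 752, Mb21d1 at 391, Ddx58 at 344, Tlr3 at 262, Ifih1 at 138, Dhx58 at 67.4 and Zbp1 at 3.30. Only Mb21d1 and Tlr3 in knockout had libraries that overlapped with those of the next gene in this order. Tbk1 stood at 0.912 ± 0.0358 of Mavs per exon length in knockout and 1.55 ± 0.0348 in control. These levels are not net of the lowered neighbours of Tbk1, and net of their median its change of -0.060 did not pass (limma adjusted p = 0.178). Over both groups, 76.7% of tested genes had a lower level per kb than Tbk1, and 23.9% had a lower level than Dhx58.

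**Figure D4:**
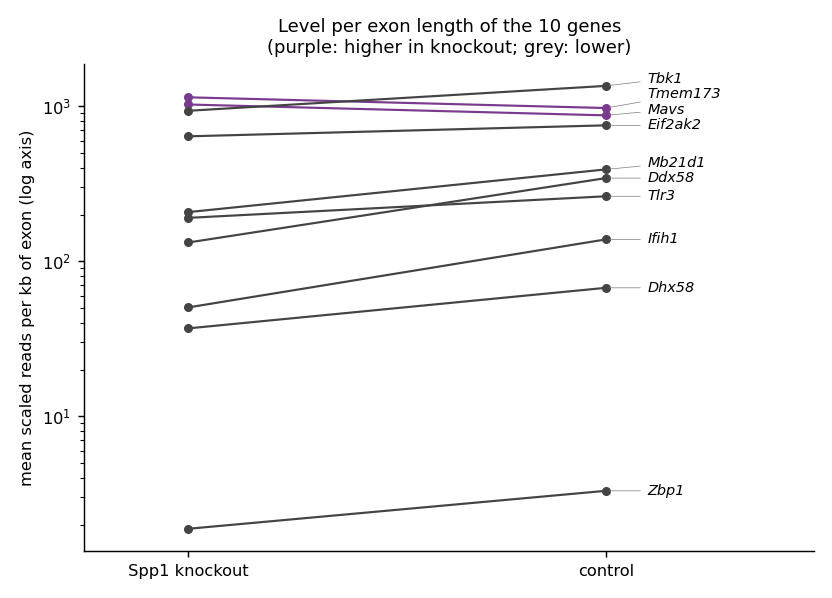
Mean scaled reads per kb of exon (log axis) of the 10 genes in knockout (left) and control (right), each gene joined by a line that is purple where the level was higher in knockout. Tbk1 is first in control at 1352 and stands at 934 in knockout, below Tmem173 and Mavs, and Ddx58 lies below Tlr3 in knockout and above it in control.

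Partner genes of these pathways moved in both directions. Of 200 genes in 8 lists of partners, 162 were tested, and 69 of these rose (42.6%) and 48 fell (29.6%), against 34.4% and 28.6% of all tested genes. Their median log2 change was 0.020. The counts in each list below are to be read beside the same shares of all tested genes, 34.4% higher and 28.6% lower. The 48 include genes that passed the filter through the control libraries alone and so had to be lower, Ifi204, Irf7 and Traf3ip3 among them.

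Among 32 tested partners of the RNA sensors 16 rose and 10 fell, with a median of 0.087. Ddx60, a helicase reported to assist RIG-I, had 28.2, 37.6 and 40.0 scaled reads in knockout, against 176.5, 203 and 187 in control, which is -2.40 ± 0.15 on the log2 scale (SE, limma adjusted p = 3.1e-09). Usp3, a deubiquitinase that acts on RIG-I, fell by 0.87 on the log2 scale, or by 0.49 net of its lowered neighbours on chromosome 9. Smurf1, a ubiquitin ligase that can mark MAVS for degradation, had 8585, 8468 and 8343 scaled reads in knockout, against 4308, 4024 and 4491 in control. It rose by 0.99 on the log2 scale, and Trim65, a ligase of MDA5, by 0.71. Trim25, the ligase best known for activating RIG-I, stood at -0.0061 and did not pass (limma adjusted p = 0.941), while Rnf135, another RIG-I ligase, fell by 0.61. Both were picked for their role with their values known.

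Of 37 tested partners of cGAS and STING 16 rose and 9 fell, with a median of 0.061. Enpp1, the enzyme that breaks down cGAMP outside the cell, had 37.7, 36.6 and 37.1 scaled reads in knockout, against 846, 897 and 935 in control, which is -4.55 ± 0.096 on the log2 scale (SE, limma adjusted p = 3.06e-14). Enpp1 lies on chromosome 10, and net of its neighbours the change was -4.06. Ifi204, a HIN-200 protein reported to sense DNA, was read 10 times in all in knockout and 63 times in control, a ratio of 0.175 (exact 95% counting interval 0.0802 to 0.344). It passed the filter through control alone, which fixed its direction, and it is counted among the 9 that fell. Since part of its exon sequence also occurs in other genes its level is uncertain. Trim32 and Rnf26, ubiquitin ligases of STING, rose by 0.51 and 0.43. Overlap with other genes, largest for Gm49380, covers 65.2% of the exon length of Rnf26.

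In the TBK1 complex and the activation of interferon regulatory factors 8 of 21 genes rose and 7 fell, with a median of -0.0027. The number that rose was 5 without knockout 1, with equal totals, net of the neighbours' median, and in edgeR and DESeq2 on 5 libraries. Irf7, the factor that amplifies interferon production, was read once in each knockout library and 101 times in all in control, a ratio of 0.0328 (exact 95% counting interval 0.00666 to 0.0987). It passed the filter through control alone, as did Traf3ip3, an adaptor that brings TRAF3 to MAVS, with 13 reads in knockout and 56 in control. Both are counted among the 7 that fell, and the filter fixed their direction. Azi2, Sike1 and Otud7b, also among the 7, changed by -0.22, -0.29 and -0.38, beside neighbour medians of -0.22, -0.23 and -0.41. Optn and Ikbke, at -0.13 and -0.46, had neighbour medians of 0.022 and 0.11. Irf3, the factor that TBK1 activates first, had 2748, 2908 and 2753 scaled reads in knockout, against 2375, 2214 and 2237 in control. This was a small rise of 0.30 on the log2 scale (limma adjusted p = 1.5e-05), and Tbkbp1, an adaptor of the kinase, rose by 0.56. Ikbke, the kinase most like TBK1 and named after its value was seen, fell by 0.46.

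Of 20 genes of the eIF2 kinases and PKR control 10 rose and 5 fell, with a median of 0.11. Ddit3, the stress factor CHOP, had 1263, 1267 and 1185 scaled reads in knockout, against 4286, 3831 and 3944 in control. The log2 change was -1.70 ± 0.048 (SE, limma adjusted p = 4.95e-13), or -1.21 net of its neighbours on chromosome 10. Atf4, the factor whose translation rises when eIF2 is phosphorylated, fell by 0.26, or by 0.093 net of its neighbours. Ppp1r15a, which directs the removal of that phosphate, and Eif2ak1, the eIF2 kinase that responds to heme, rose by 0.54 and 0.41. Net of the neighbours' median 3 genes of this list fell.

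The Toll-like receptor list had 6 of 18 tested genes higher and 8 lower, with a median of -0.014. The largest decreases were in Tlr2 and Tlr1, which sense bacterial lipopeptides at the cell surface. Tlr2 had 37.7, 45.5 and 34.2 scaled reads in knockout, against 167, 168 and 172 in control, and Tlr1 had 53.3, 63.3 and 56.6 in knockout, against 245, 237 and 248 in control. The log2 changes were -2.09 and -2.06, and net of its neighbours Tlr2 stood at -1.83. For Tlr1, 15.4% of its 50-base words occur in other genes. Hsp90b1, Tab2 and Tab1, also among the 8, changed by -0.63, -0.47 and -0.22, beside neighbour medians of -0.62, -0.49 and -0.17. The rest of the 8 lay further below their neighbours' medians. Unc93b1, the chaperone that carries endosomal receptors, fell by 1.05 and Ticam1, the adaptor of TLR3, stood at -0.045 without passing in limma, both picked for their role with their values known. Tirap and Irak1, parts of the MyD88 branch, rose by 0.40 and 0.26.

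Of 10 tested genes of necroptosis and cell death 6 fell and the other 4 did not pass, with a median of -0.26. Among all tested genes 63.0% passed in either direction and 28.6% were lower. Against a change of 1.2-fold 2 of the list fell, where 14.2% of all tested genes passed as lower. Mlkl, the executor of necroptosis, had 4244, 4336 and 4127 scaled reads in knockout, against 5941, 5824 and 6159 in control, a fall of 0.50 on the log2 scale. Gsdmd, the pore-forming protein of pyroptosis, fell by 0.86 to a mean of 53.1 in knockout, against 96.9 in control. Ripk3, the kinase between ZBP1 and MLKL, did not pass the filter, with 1.05, 5.94 and 0.976 scaled reads in knockout and 9.40, 8.05 and 4.88 in control. Casp1, the protease that matures interleukin-1 beta, did not pass it either, with 9.41, 8.90 and 8.78 scaled reads in knockout and 2.09, 0.894 and 2.44 in control. In the fit with no filter on low values Casp1 stood at 1.88 ± 0.36 (SE, limma adjusted p = 0.00037) and Ripk3, whose groups overlapped, at -1.43 ± 0.48 (SE, limma adjusted p = 0.0185), each on at most 9 reads per library. Both were named after their values were seen.

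The list of double-stranded RNA editing, binding and degradation had 13 of 24 genes higher and 3 lower, with a median of 0.18. It also holds genes of other roles, such as Dnmt1 and Uhrf1, so these counts are not of double-stranded RNA genes alone. The number lower was 5 with equal totals and 1 net of the neighbours' median. Dnmt1 and Uhrf1, which maintain DNA methylation and the silence of repeats, rose by 0.48 and 0.44. Dnmt1 had 29869, 31369.8 and 28724 scaled reads in knockout, against 20655, 20558 and 23188 in control. Supv3l1, a mitochondrial RNA helicase, and Ilf2, a double-stranded RNA binding partner, fell by 0.45 and 0.34, but stood at 0.21 and 0.013 net of their neighbours. Adar, the editor that keeps cellular RNA from activating MDA5 and PKR, stood at -0.034 and did not pass (limma adjusted p = 0.499), a value looked up for its role.

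Of 20 type I and III interferon genes 1 had a row, Ifnz, with 3.14, 2.97 and 2.93 scaled reads in knockout and 7.31, 5.36 and 2.44 in control. The groups overlapped, and 76.9% of its 50-base words occur in other genes. The other 19 were not analysed here.

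**Figure D5:**
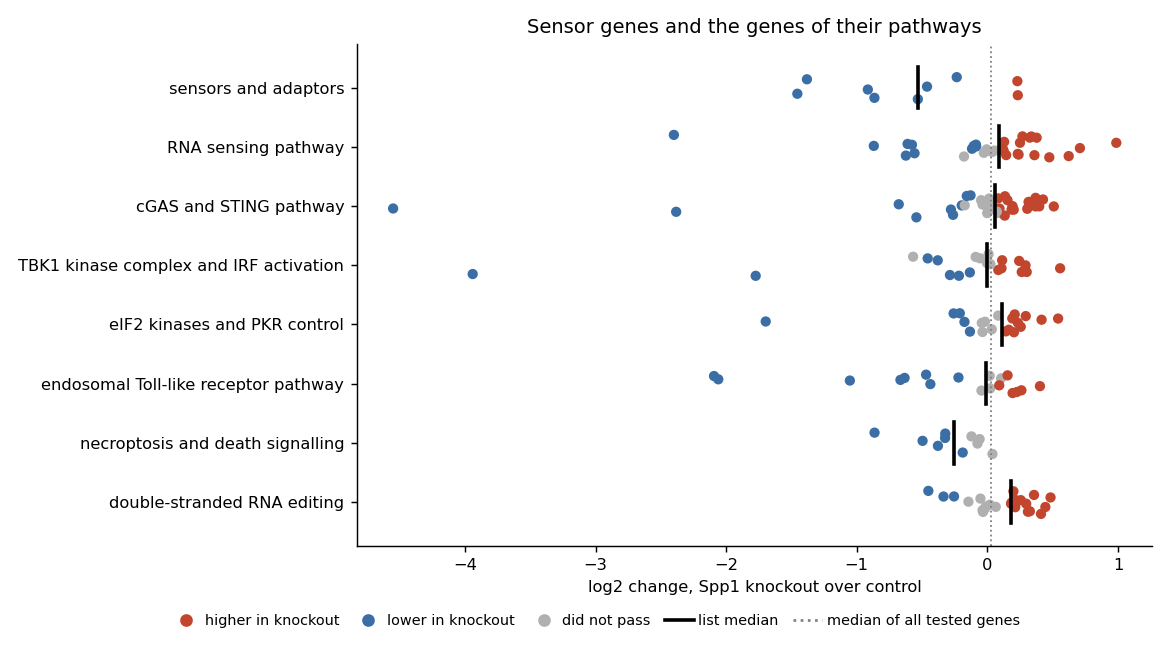
Log2 change in knockout over control of each tested gene of the sensor set and of 7 partner lists (points, red higher, blue lower, grey not past the limma threshold), with list medians in black and the median of all tested genes dotted. The sensors have a median of -0.53, while those of the partner lists run from -0.26 for necroptosis to 0.18 for double-stranded RNA editing.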

How the data were processed

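PolyA RNA of 3 Spp1 knockout and 3 non-targeting control samples was sequenced from both fragment ends, according to the labels' protocols. The deposited signal is the number of reads on a gene after the authors' DESeq scaling, per the labels and the series' design text. Tools in the submitters' processing notes are STAR 2.5.0a, cutadapt 1.6, DESeq and HTSeq 0.5.3, with build mm10. The gene models, strand setting and filter behind the table are not stated there. Every value was a whole multiple of its column's smallest value (100% within 0.001), taken as 1 read, and every gene in the table had at least 1 read in each library. For knockout 2 the recovery was not accepted by a check of units, so edgeR 4.0.16 and DESeq2 1.42.0 were run on 5 libraries (8879 and 8123 genes called), and read counts of knockout 2 rest on that smallest value. Counting intervals are exact binomial and cover counting error only.

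The 2 groups were fitted in limma 3.58.1 (R 4.3.3) on log2(value + 1) with robust, trended variances. Two-sided p-values were adjusted by Benjamini and Hochberg's method over 15307 genes at a threshold of 0.05. This scale understates changes of sparsely read genes. Permuting 3 against 3 exactly cannot give a p below 0.1 and was not used. The members and lists were chosen with earlier results of these data known. Named are all members, Spp1, and in each partner list the genes past the threshold with the largest changes, up to 2 in each direction, or the gene with the highest mean where none passed. Trim25, Rnf135, Ikbke, Unc93b1, Ticam1, Adar, Ripk3, Casp1, the Gsta genes and the marker genes fall outside this rule and were named with their values known. The same holds for Azi2, Sike1, Otud7b, Optn, Hsp90b1, Tab1, Tab2 and Gm26637. Positions, exon lengths, overlaps and shared 50-base words are from GENCODE M21 on GRCm38. Chi-square per degree of freedom between libraries of a group was 6.36 to 18.3, so no library was a copy of another. Alternatives changed pseudocount, filter, scaling, variance model, tool, block, neighbours and libraries. Another promoter motif of the planned search is not reported here.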

Additional observations from a re-analysis of the deposited data

How the results depend on the processing

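The 9 calls among the sensor genes kept their direction in all 18 other settings, and 9 were called in each setting except 2. Net of the neighbours' median 8 were called, Tbk1 standing at -0.060 (limma adjusted p = 0.178), and against a change of 1.2-fold, a setting chosen after seeing the data, 6 were called, all lower and 0 higher. There Mavs and Tmem173 at 0.23 each and Eif2ak2 at -0.23 did not pass, and 3749 genes were called in all, 1581 higher and 2168 lower, with 18 partner genes higher and 22 lower. Leaving out 1 library at a time kept 9 sensor genes called, with Ddx58 at -1.43 to -1.31, Ifih1 at -1.49 to -1.43 and Dhx58 at -0.94 to -0.79, and gave 8764 to 9310 genes called in all. Of 471 values of the 26 named partner genes and Spp1 under other settings 465 kept call and direction. Spp1, Ifi204, Irf7 and Traf3ip3 passed the filter through the control libraries alone, which fixed their direction wherever that filter was used. Their values, 15 for Spp1 and 14 for each of the others, are among the 471. Settings that gave a gene no value are not counted. Net of the neighbours' median Supv3l1 turned to 0.21 and Ilf2 to 0.013, and Atf4, Irak1, Irf3 and Ilf2 did not pass against 1.2-fold. The cause was not tested. Ifi204, Irf7 and Traf3ip3 had no value with a control library left out or with a filter of at least 50, and their change depended on the pseudocount, with Irf7 at -4.33 with 0.5 and -2.54 with 5.

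Knockout and control samples with the same number did not deviate together (r = -0.107, -0.244 and -0.038 across genes), so the numbers were not taken as pairs. With the replicate block 9289 genes were called, 9 of the sensor genes among them. Depth limits Zbp1, Ripk3, Irf7 and Ifnz, each read fewer than 50 times per library.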
